A study of Mus musculus with 54 samples.

Results

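Cytosolic sulfotransferases are enzymes that move a sulfate group from the donor PAPS onto steroids, bile acids, thyroid hormones, phenols and drugs. The added sulfate usually makes the acceptor more soluble in water and less active, and liver is one of the main sites of the reaction. In rodents several of these genes differ strongly between the sexes in liver, and pulses of growth hormone in blood, read in hepatocytes through STAT5, are known to set part of that difference. The 10 genes described here were chosen by symbol: Sult2a1, Sult2a2, Sult2a7, Sult1a1, Sult1b1, Sult1c2, Sult1d1, Sult1e1, Sult3a1 and Sult5a1. All 10 were found among the 18079 genes of the expression table, which held 19 rows of the family in all.

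RNA was sequenced in 54 liver libraries from female C57BL/6J mice aged 8 to 12 weeks, kept on normal chow with free access and 12 h of light in every 24 h. The 3 genotypes were wild-type mice (WT), BMAL1 knockouts (KO), and mice that carried the BMAL1-stop-FL allele with BMAL1 restored in the liver of an otherwise BMAL1-deficient animal (Liver-RE). Arntl encodes BMAL1, a core transcription factor of the circadian clock, and the series addresses how autonomous the clock of the liver is. Each genotype was harvested at zeitgeber time (ZT) 0, 4, 8, 12, 16 and 20, in hours after lights on, with 3 libraries per time and thus 18 per genotype. The labels do not name the driver that restores BMAL1 or the cells in which it acts, and the controls are not described beyond WT.

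Values are per gene length and sequencing depth and were taken as FPKM, so levels of different genes can be set beside each other. Libraries held an estimated 24.8 to 41.7 M mapped reads each, judged from the value that a single read adds to a gene. Of the hepatocyte markers, Alb had its lowest value at 11600 FPKM. Arntl itself was at 6.26 to 8.74 FPKM in KO, so its whole-gene value does not check the KO label; Dbp, a clock output gene, reached 2.56 FPKM at most in KO against 66.0 in WT. WT ZT8 replicate 2 had clock genes far from its group, and results that change without it are named. The labels do not give the animal behind each library, so p-values measure the spread between these samples. Fewer cells of a type and less RNA per cell cannot be told apart in whole liver.

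The 10 genes differed widely in level in WT liver. Sult1a1, which sulfates simple phenols, was the highest, with 159 FPKM in the lowest library, a median of 298 and 447 in the highest. Sult2a1, which sulfates hydroxysteroids such as DHEA and bile acids, had a lowest value of 13.3, a median of 109 and a highest of 296 FPKM. Sult1d1, which acts on catecholamines and other amines, ranged from 52.8 through a median of 117 to 197 FPKM, so its range lies within that of Sult2a1 in WT. The close relative Sult2a2 went from 27.8 through 98.3 to 176 FPKM, and Sult3a1, which sulfates amines, from 3.42 through 57.8 to 107 FPKM. These 4 genes overlapped one another widely and cannot be ordered beyond their spread.

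The next 3 genes in WT were Sult1b1 (thyroid hormones; 3.65, median 7.33, highest 13.6 FPKM), Sult1c2 (3.73, 5.55 and 11.03 FPKM) and Sult5a1 (0.730, 4.89 and 9.06 FPKM). They overlapped with each other and lay below every Sult1a1 and Sult1d1 value. Sult2a7 was between 0.0398 and 1.36 FPKM with a median of 0.697. Sult1e1, the estrogen sulfotransferase, was lowest, with a median of 0.0634 FPKM, a highest value of 0.722 and 4 of 18 libraries at 0. Sult1e1 passed the filter of a mean of 0.5 FPKM over all libraries only through KO. Its mean was 4.71 FPKM there, against 0.179 in WT and 0.591 in Liver-RE.

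Of the 9 family rows outside the 10, Sult2a8 had a WT mean of 173 FPKM and stood second to Sult1a1. Sult2a5 followed at 7.92, Sult2a6 at 3.41, Sult2a3 at 2.21, Sult2a4 at 1.37 and Sult3a2 at 1.17 FPKM. Sult6b1 (0.0863), Sult4a1 (0.0851) and Sult2b1 (0.0169) were under 0.1 FPKM in WT. Sult3a2, Sult6b1, Sult4a1 and Sult2b1 fell under the filter and were not tested.

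**Figure D1:**
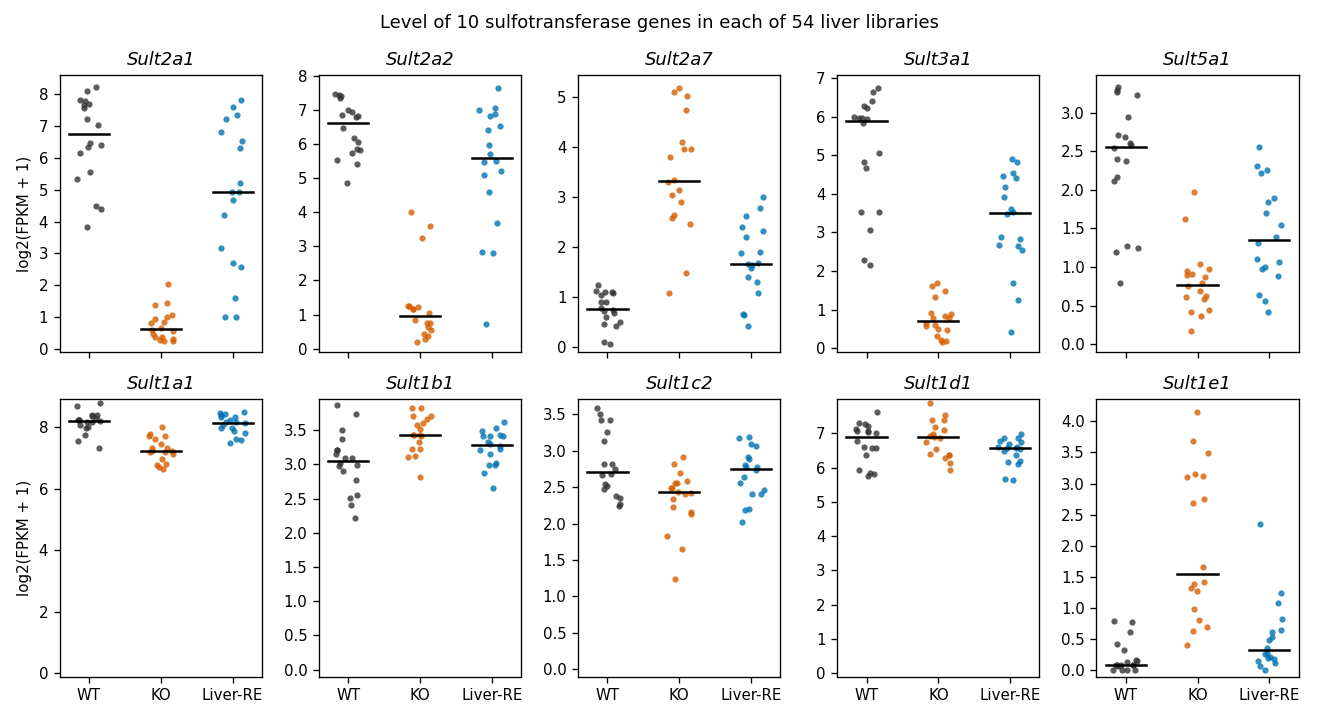
Level of each of the 10 genes in every library, as log2(FPKM + 1) on the vertical axis, with 1 point per library and 18 per genotype. Black bars are medians. The KO points of Sult2a1, Sult2a2 and Sult3a1 all lie below the WT points, while Sult2a7 and Sult1e1 are high in KO.

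The Sult2a genes lie next to each other on chromosome 7 and their transcripts resemble each other, which bears on how reads can be divided among them. On GRCm38.p6 the order is Sult2a5 (13623967 to 13670807), Sult2a2 (13733506 to 13779637), Sult2a1 (13796246 to 13837410), Sult2a4, Sult2a3, Sult2a6, Sult2a8 (14410686 to 14446780) and Sult2a7 (14465051 to 14493023). Over the 582 coding bases of the GENCODE vM21 model of Sult2a2, 570 are identical to Sult2a1, or 97.9%. Sult2a5 is identical to Sult2a1 at 94.9% of 855 coding bases, while Sult2a7 is identical at 81.6% of the 852 bases that both hold. Within Sult1, over the bases held by both, Sult1d1 is identical to Sult1e1 at 64.2%, to Sult1a1 at 64.0% and to Sult1b1 at 63.9%.

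The first 75 coding bases of the 3 members and Sult2a8 are printed, with capitals marking bases that differ from Sult2a1 at the same place. They come from GENCODE vM21 transcripts on GRCm38: Sult2a1 from chr7:13837282-13837356, minus strand, Sult2a2 from chr7:13733559-13733633, plus strand, Sult2a7 from chr7:14492897-14492971, minus strand and Sult2a8 from chr7:14427845-14427919, minus strand.
Sult2a1: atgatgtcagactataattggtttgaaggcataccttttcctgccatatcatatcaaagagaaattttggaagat
Sult2a2: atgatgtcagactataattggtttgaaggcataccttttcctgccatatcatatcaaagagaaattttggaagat
Sult2a7: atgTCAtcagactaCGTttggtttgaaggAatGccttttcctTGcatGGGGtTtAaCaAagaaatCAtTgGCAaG
Sult2a8: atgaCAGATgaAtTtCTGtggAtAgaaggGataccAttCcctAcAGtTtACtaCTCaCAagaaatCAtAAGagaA
Sult2a1 and Sult2a2 are the same over this stretch, Sult2a7 differs at 25 of 75 bases and Sult2a8 at 32. The stretch was picked as the single-exon one with the most differences between Sult2a1 and Sult2a7. Over the 852 bases that both hold, these 2 genes are 81.6% identical. A read that lies wholly within a stretch shared by 2 genes fits both. Of all 100-base stretches in Sult2a2 transcripts, 34.6% also occur in a transcript of another gene (Sult2a1, Sult2a4 or Sult2a5), against 11.4% for Sult2a1 and 0% for Sult2a7, Sult2a8 and Sult3a1. Only exact matches were counted. The Sult2a2 model is short, with 582 coding bases against 855 for Sult2a1, so the 11.4% can understate what the 2 genes share. How the authors assigned reads that fit several genes is not given in the sources used here, so the values of Sult2a1 and Sult2a2 are not fully separate measurements.

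In KO liver the sulfotransferases moved in both directions, with 6 of the 10 genes lower than in WT, 3 higher and 1 not called (limma, adjusted p under 0.05 over 11759 genes). Over all genes tested, 13.5% were called lower and 16.5% higher. The median log2 difference was -0.69 over the 10 genes and 0.02 over all genes. In 3 of the 10, Sult2a1, Sult2a2 and Sult3a1, every KO library lay below every WT library, which held for 0.306% of all genes tested.

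Sult2a1 in KO had a lowest value of 0.181 FPKM, a median of 0.530 and a highest of 3.08. Sult2a2 in KO went from 0.136 through a median of 0.938 to 15.2 FPKM. The highest 3 of those Sult2a2 values were 15.2, 10.99 and 8.54 FPKM, in ZT20 replicate 1, ZT0 replicate 1 and ZT0 replicate 3, and all 3 stayed below the lowest WT value of 27.8 FPKM. The ratio of mean FPKM in WT to that in KO was 165 for Sult2a1 and 38.0 for Sult2a2. The log2 difference for Sult2a1 was -5.81 with a 95% interval from -6.82 to -4.80, and that for Sult2a2 -5.18 with an interval from -6.01 to -4.35.

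Sult3a1 had values of 0.114, 0.639 and 2.22 FPKM (lowest, median and highest) in KO, against a WT minimum of 3.42. Its log2 difference was -4.28 ± 0.370 (SE; n = 18 per genotype; limma, adjusted p = 1.82e-13), and the ratio of WT to KO means was 59.3. Sult3a1 lies on chromosome 10 (33851020 to 33879475), apart from the Sult2a genes. Its neighbour Sult3a2, with 90.9% of coding bases identical, had a median of 0.965 FPKM in WT and was at 0 in 13 of 18 KO libraries.

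Sult5a1, on chromosome 8 (123142843 to 123158914), fell to a median of 0.710 FPKM in KO, with a range of 0.123 to 2.92 that overlaps WT. At each of the 6 harvest times, all 3 KO libraries lay below all 3 WT libraries. The log2 difference was -1.56 ± 0.182 (SE; limma, adjusted p = 1.47e-09), and -2.37 with a pseudocount of 0.1 in place of 1.

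Sult1a1 fell too, though by mean it was still the highest of the 10 genes in KO, with values of 99.2, 149 and 258 FPKM. All 18 KO libraries were below the WT median, and at 5 of 6 times the groups of 3 did not overlap. The log2 difference was -0.89 ± 0.107 (SE; limma, adjusted p = 3.04e-09). Sult1c2 fell by 0.49 ± 0.106 on the log2 scale (SE; limma, adjusted p = 0.000272), with KO values of 1.36, 4.38 and 6.53 FPKM that overlap WT.

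Sult2a7 moved against its neighbours Sult2a1 and Sult2a2. It rose from a WT median of 0.697 FPKM to a KO median of 8.99, with a KO range of 1.11 to 35.6. Of 18 KO libraries, 17 exceeded the highest WT value, and the groups of 3 did not overlap at any of the 6 times. The log2 difference was 2.69 ± 0.268 (SE; limma, adjusted p = 1.66e-11). Sult2a8, next to it on the chromosome, was higher in KO by 0.95 ± 0.147 (SE; limma, adjusted p = 1.15e-06), with a mean of 326 FPKM against 173 in WT.

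Sult1e1 rose from a WT median of 0.0634 FPKM to a KO median of 1.93 FPKM, with a range of 0.323 to 16.7. In KO, 15 of 18 libraries were above the highest WT value of 0.722 FPKM. Sult1e1 passed the filter only through KO, so its place among the 3 genes called higher partly follows from that filter. Without the filter it was still called. The log2 difference was 1.83 ± 0.252 (SE; limma, adjusted p = 9.1e-08), and 3.70 with a pseudocount of 0.1 in place of 1. The KO values within 1 harvest time were far apart, with a mean of 6.24 ± 9.06 FPKM (SD, n = 3) at ZT20.

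Of the chromosome 5 genes next to Sult1e1, Sult1b1 was called and Sult1d1 was not. Sult1b1 was higher in KO by 0.41 ± 0.094 (SE; limma, adjusted p = 0.000597), with 17 of 18 KO libraries above the WT median. Sult1d1 lies between Sult1b1 and Sult1e1. Its log2 difference was 0.11 with a 95% interval from -0.17 to 0.39, and its KO values of 59.96, 117 and 234 FPKM cover the WT range but for its lowest values.

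**Figure D2:**
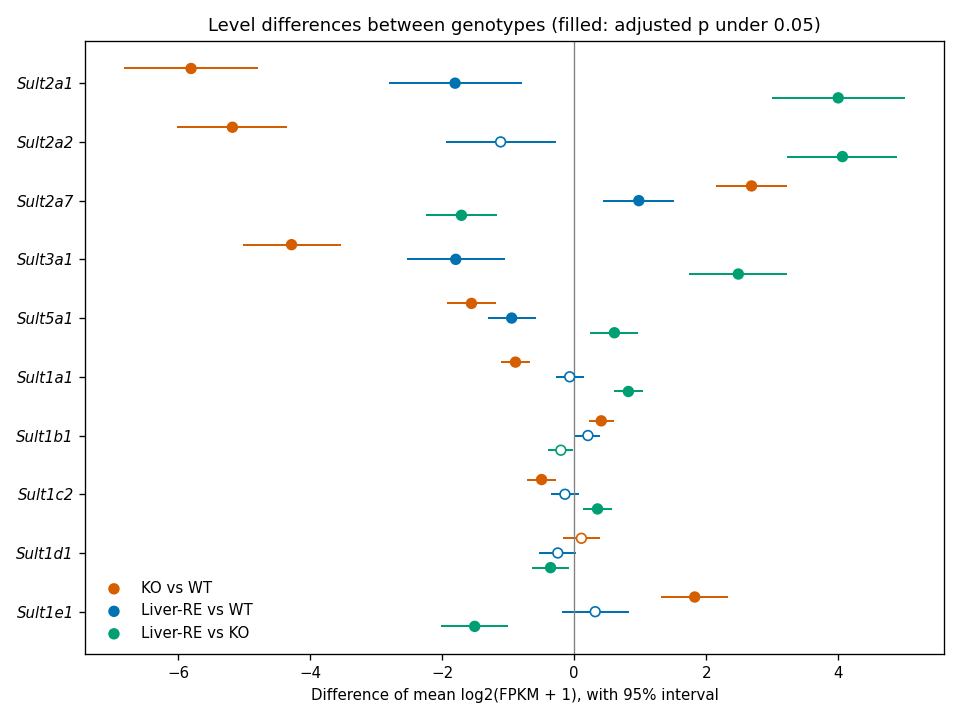
Difference of mean log2(FPKM + 1) between genotypes for each of the 10 genes, with 95% intervals from limma. Filled points passed an adjusted p of 0.05. KO vs WT runs from -5.81 for Sult2a1 to 2.69 for Sult2a7, and most Liver-RE vs WT points lie nearer 0.

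Sult2a genes moved in opposite directions, and their sum over 8 genes was not called different between KO and WT. The sum had a mean of 418 ± 138 FPKM in WT, against 344 ± 78.5 in KO and 389 ± 127 in Liver-RE (SD, n = 18 each). Its log2 difference between KO and WT was -0.25 ± 0.150 (SE; limma, adjusted p = 0.218). The sum was not called between Liver-RE and KO (0.15, adjusted p = 0.457 in limma) or between Liver-RE and WT (-0.10, adjusted p = 0.720 in limma) either. Sult2a8 made up 45.5% of the sum in WT and 94.6% in KO, with 65.6% in Liver-RE. Without Sult2a8, the sum of the other 7 was 245 ± 143 FPKM in WT and 17.6 ± 14.2 in KO (SD, n = 18 each), a log2 difference of -3.76 ± 0.445 (SE; limma, adjusted p = 2.25e-09). Sult2a7 rose within that sum, and none of its 100-base stretches occurs in another gene.

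**Figure D3:**
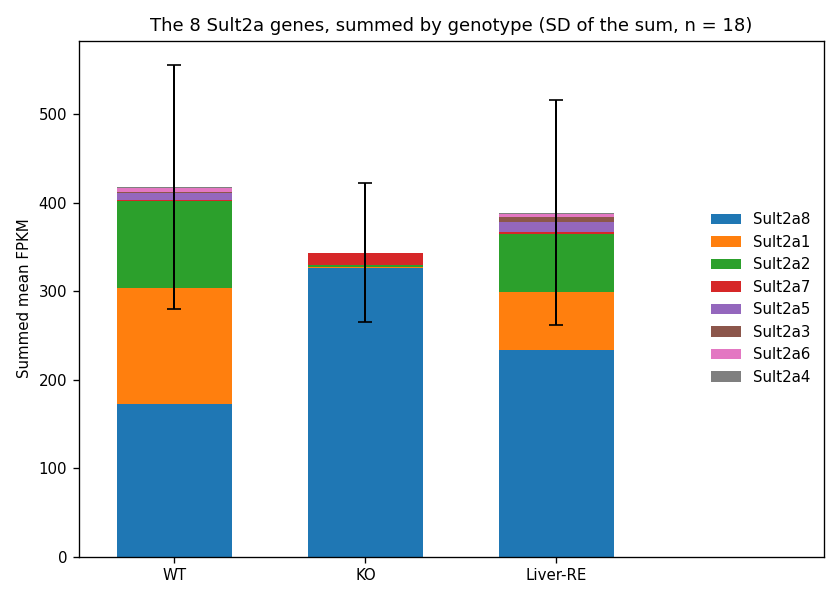
Mean FPKM of the 8 Sult2a genes stacked by genotype, with the SD of the summed value over 18 libraries. Bars start at 0. In KO nearly the whole bar is Sult2a8. Its share averaged over single libraries was 94.6% in KO and 45.5% in WT, which is not its part of the bar of means.

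Apart from Sult2a8, the other genes of the Sult2a block, none of them among the 10, were lower in KO on average, as Sult2a1 and Sult2a2 were. The log2 differences between KO and WT were -2.56 for Sult2a5, -1.33 for Sult2a3, -1.25 for Sult2a6 and -0.89 for Sult2a4, all called (limma, adjusted p between 2.49e-08 and 0.0155). For Sult2a6, 9 of 18 WT libraries had at most 0.0712 FPKM, within the KO range, so the difference comes from the other WT libraries. Over the 15 family rows tested, 4 were higher and 10 lower in KO, beside 16.5% higher and 13.5% lower over all genes tested. Sult2a1, Sult2a2, Sult2a4 and Sult2a5 share stretches of transcript, so their rows are not fully separate.

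In Liver-RE liver, most of the 10 genes differed from KO. Against KO, 6 were higher and 3 lower in Liver-RE (limma, adjusted p under 0.05), while 7.42% of all genes tested were called higher and 26.7% lower. With quantile normalization those shares became 12.4% and 14%, and with rescaling without the 20 highest genes 10.6% and 13.9%. The 3 level contrasts share libraries, so their values are not independent of each other.

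The Sult2a1 values in Liver-RE were widely scattered, from 0.988 through a median of 29.6 to 224 FPKM, a spread of 227-fold against 22.3-fold in WT. Sult2a2 in Liver-RE went from 0.633 through 47.7 to 201 FPKM. Of the 18 Liver-RE libraries, 15 had more Sult2a1 than the highest KO library, and 14 had more Sult2a2. The lowest Liver-RE libraries, ZT4 replicate 2 and ZT20 replicate 2, had 0.988 FPKM of Sult2a1 each, within the KO range. The log2 differences against KO were 4.00 ± 0.502 for Sult2a1 and 4.07 ± 0.415 for Sult2a2 (SE; limma, adjusted p = 1.04e-08 and 3.43e-11).

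Sult3a1 in Liver-RE had values of 0.332, 10.3 and 28.7 FPKM and was 2.49 ± 0.370 above KO on the log2 scale (SE; limma, adjusted p = 5.25e-07). Sult1a1 was 0.82 ± 0.107 above KO (SE; limma, adjusted p = 2.5e-08), with Liver-RE values of 181, 285 and 365 FPKM. Sult5a1 was 0.61 ± 0.182 and Sult1c2 0.35 ± 0.106 above KO (SE; limma, adjusted p = 0.00774 and 0.00828). Sult2a7 and Sult1e1 were lower in Liver-RE than in KO, by -1.71 ± 0.268 and -1.51 ± 0.252 (SE; limma, adjusted p = 1.55e-06 and 5.51e-06). With a pseudocount of 0.1 the Sult5a1 difference was 1.06 and that of Sult1e1 -2.70. The lower Sult1d1, -0.36 ± 0.140 (SE; limma, adjusted p = 0.0422), lost its call under quantile normalization (adjusted p = 0.123), with rescaling without the 20 highest genes (0.125), without the filter (0.0600), when only KO and Liver-RE were fitted (0.0518), and when any 1 of 15 libraries was left out (adjusted p up to 0.0815). In KO these were ZT0 replicate 3, ZT4 replicates 1, 2 and 3, ZT12 replicates 1 and 2, ZT16 replicates 1 and 3 and ZT20 replicate 1, and in Liver-RE ZT0 replicate 3, ZT4 replicate 2, ZT8 replicate 1, ZT16 replicates 1 and 2 and ZT20 replicate 2. Sult1b1 was not called (-0.20 ± 0.094, SE; limma, adjusted p = 0.0897), but passed without KO ZT0 replicate 3 (0.0434).

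Against WT, 4 of the 10 genes were called in Liver-RE, 3 lower and 1 higher (limma), with 5.88% of all genes tested called lower and 1.18% higher. Quantile normalization turned those shares of all genes into 2.26% and 2.10%. Sult3a1 was -1.80 ± 0.370 and Sult5a1 -0.95 ± 0.182 below WT (SE; limma, adjusted p = 0.00141 and 0.000613). In all 18 Liver-RE libraries, both genes were below the WT median. Sult2a1 was -1.81 ± 0.502 (SE; limma, adjusted p = 0.0207), but the call was lost when only WT and Liver-RE were fitted (adjusted p = 0.0569). Sult2a2 had a log2 difference of -1.12 with an interval from -1.95 to -0.28 and was not called (limma, adjusted p = 0.0853), but passed without Liver-RE ZT4 replicate 1 (0.0411). Sult2a7 was the gene above WT, by 0.98 ± 0.268 (SE; limma, adjusted p = 0.0184; 1.65 with a pseudocount of 0.1), with a Liver-RE median of 2.18 FPKM, and 14 of 18 libraries exceeded the highest WT value.

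For Sult1a1, Sult1b1, Sult1c2, Sult1d1 and Sult1e1, the differences between Liver-RE and WT were not called. The 95% interval for Sult1a1 ran from -0.28 to 0.15 on the log2 scale, and that for Sult1e1 from -0.19 to 0.83, so a difference as large as the KO one is outside both intervals on this scale. With a pseudocount of 0.1 the Sult1e1 difference was 1.00 (limma, adjusted p = 0.125), against 3.70 between KO and WT.

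Several Sult2a genes also hold a similar stretch before their starts. The following stretches of 60 bases are RefSeq (GRCm38.p6) sequence upstream of Sult2a5, Sult2a4, Sult2a3 and Sult2a6, with capitals marking bases that differ from Sult2a5. They lie at chr7:13623805-13623864, plus strand, chr7:13989770-13989829, minus strand, chr7:14123174-14123233, minus strand and chr7:14255017-14255076, minus strand.
Sult2a5: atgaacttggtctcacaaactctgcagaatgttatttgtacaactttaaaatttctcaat
Sult2a4: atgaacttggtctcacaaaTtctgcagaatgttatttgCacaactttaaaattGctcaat
Sult2a3: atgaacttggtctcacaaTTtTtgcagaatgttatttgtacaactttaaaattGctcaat
Sult2a6: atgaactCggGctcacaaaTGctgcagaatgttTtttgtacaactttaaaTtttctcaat
Sult2a4 differs at 3, Sult2a3 at 4 and Sult2a6 at 6 of 60 bases. The stretch was picked as the most alike within the 250 bases before the starts, at a different distance in each gene. These counts therefore do not describe the rest of the upstream sequence. Sult2a8, which was higher in KO, was not compared, so a link between the stretch and the direction in KO was not tested.

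Promoter windows of 250 bases before to 50 after the start were given for 7 of the 10 genes, and 18 windows for the family. No window was given for Sult2a1, Sult2a2 or Sult2a7, so the counts that follow do not cover these genes. CACGTG, the E-box that BMAL1 and its partners bind, occurred in 0 of the 18 family windows, against 7.15% of all 32851 windows. TTATGNAA (D-box) occurred in 0 against 3.38%, and AGGTCA, a part of the ROR element, in 3 against 16.3%. TTCNNNGAA (STAT5) occurred in 1 against 8.3%. Both strands were read. Each count is a description of these windows and says nothing about factor binding elsewhere. The matches before an annotated start of a member are printed with the motif in capitals. They lie at chr5:87538284-87538343, minus strand for Sult1b1, chr5:87591690-87591749, minus strand for Sult1e1 and chr10:33857588-33857647, plus strand for Sult3a1. The start used for Sult3a1 is an internal one, so its stretch lies inside the span of the gene (33851020 to 33879475). The windows of Sult1a1 and Sult5a1 and a second window of Sult1b1 also lie inside their genes.
Sult1b1: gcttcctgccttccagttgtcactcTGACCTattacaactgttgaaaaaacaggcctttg
Sult1e1: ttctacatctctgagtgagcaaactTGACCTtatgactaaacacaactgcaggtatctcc
Sult3a1: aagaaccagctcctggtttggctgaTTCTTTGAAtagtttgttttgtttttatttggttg
The capitals are AGGTCA on the reverse strand in Sult1b1 and Sult1e1 and the STAT5 letters in Sult3a1. The bases beside AGGTCA were not searched, so no full ROR element is shown.

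In WT liver, 4 of the 10 genes varied over the day (F test in limma of a 24 h cosine and sine, adjusted p under 0.05), against 23.5% of all genes tested. The median fitted peak-to-trough fold was 1.82 over the 10 genes and 1.2 over all genes. A fitted fold also grows with the scatter between libraries. The same medians were 1.38 and 1.12 in KO and 1.68 and 1.16 in Liver-RE, where 0 of the 10 were called rhythmic. The gap in WT is thus not a measure of rhythm. All 4 genes called rhythmic in this fit belong to the Sult1 group. Fitted peaks were between ZT11.8 and ZT16.2 for 3 of them and at ZT5.61 for Sult1b1. When only WT was fitted, Sult1e1 and Sult2a7 were called as well (limma, adjusted p = 0.0234 and 0.0422). The fitted folds are on the log2(FPKM + 1) scale.

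Sult1c2 was highest around the end of the light phase. It measured 4.51 ± 1.05 FPKM at ZT4 and 10.2 ± 0.755 at ZT12 (SD, n = 3), with a fitted peak at ZT11.8 and a fold of 1.95 (adjusted p = 0.00292 in limma). Sult1d1 rose from 64.5 ± 14.4 FPKM at ZT0 to 161 ± 35.5 at ZT20 (SD, n = 3), with a fitted peak at ZT14.9 and a fold of 2.26 (adjusted p = 0.00576 in limma). Sult1a1 peaked at ZT16.2 with a fold of 1.64 (adjusted p = 0.0334 in limma), from 213 ± 69.2 FPKM at ZT4 to 368 ± 69.4 at ZT20. Its call was lost without any 1 of 4 WT libraries, ZT4 replicate 1 or 3, ZT16 replicate 3 or ZT20 replicate 3, with adjusted p up to 0.120. Sult1b1 ran in the opposite phase, with a peak at ZT5.61 and a fold of 1.69 (adjusted p = 0.00857 in limma), from 9.94 ± 3.20 FPKM at ZT4 to 5.44 ± 1.64 at ZT16. Sult5a1 was not called (fold 2.14, adjusted p = 0.0606 in limma), but passed without WT ZT16 replicate 3 (0.00596), WT ZT20 replicate 2 (0.0481) or Liver-RE ZT0 replicate 1 (0.0434).

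**Figure D4:**
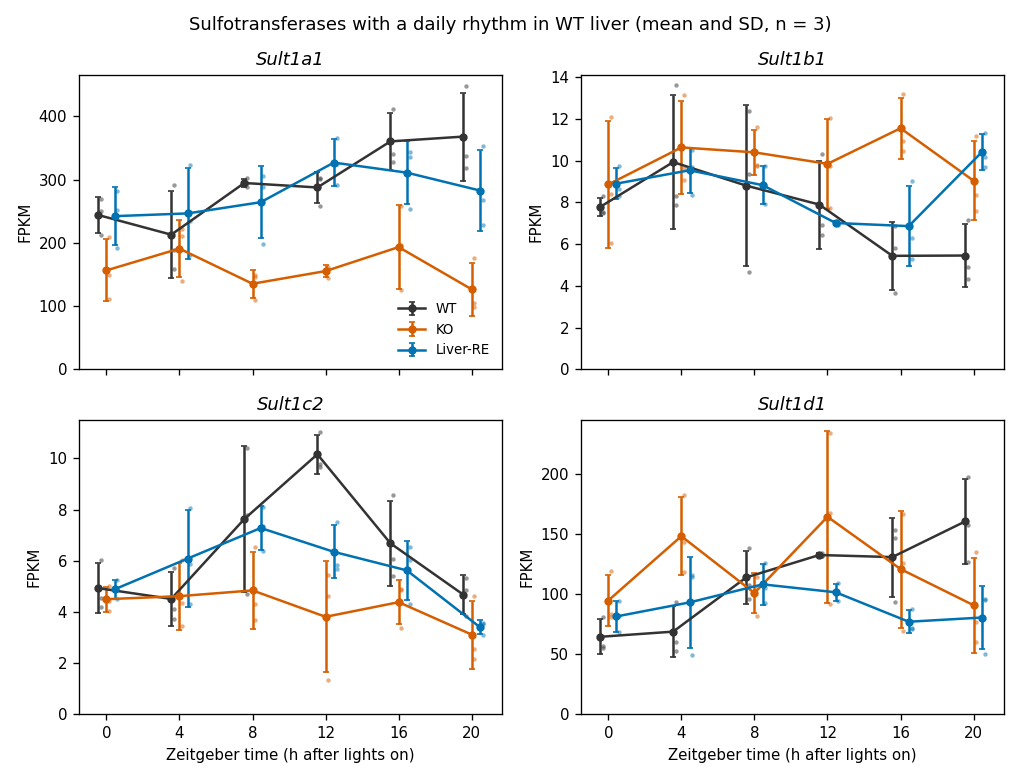
FPKM of the 4 genes called rhythmic in WT against zeitgeber time, as mean and SD of 3 libraries per point, with small dots for single libraries. WT Sult1c2 reaches 10.2 FPKM at ZT12, where KO and Liver-RE stay lower.

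In KO, 0 of the 10 genes were called rhythmic by limma, as were 0% of all genes tested, and 0 members had an unadjusted p under 0.05. In Liver-RE, 0 of the 10 were called by limma, against 3.82% of all genes, while 2 had an unadjusted p under 0.05. Those 2 were Sult1c2, with a fold of 1.68 and a peak at ZT8.70 (adjusted p = 0.0729 in limma, 0.0310 without KO ZT12 replicate 2), and Sult5a1, with a fold of 2.23 (adjusted p = 0.112 in limma). Missing the threshold does not show that the genes were flat.

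The difference of the daily pattern was tested directly. Between KO and WT, 0 of 10 genes were called by limma, with 7.78% of all genes called, and 4 members had an unadjusted p under 0.05. Sult1c2 came nearest (adjusted p = 0.0527 in limma), and it passed with the replicate number as a block (0.0410), with group means (0.0463) and without WT ZT8 replicate 2 (0.0304). It also passed without any 1 of 10 other libraries: WT ZT0 replicate 1, WT ZT16 replicate 2 or 3, KO ZT4 replicate 3, KO ZT8 replicate 1, KO ZT12 replicate 3, KO ZT16 replicate 1 or 2, and KO ZT20 replicate 2 or 3. Sult1b1 passed without WT ZT8 replicate 2 (adjusted p = 0.0290 in limma), and Sult1d1 without WT ZT16 replicate 1 (0.0478). Between Liver-RE and WT the count was 0 by limma with 3.51% of all genes called and 2 members under an unadjusted 0.05. There Sult1b1 passed without WT ZT8 replicate 2 (0.0427), and Sult1d1 without WT ZT16 replicate 1 (0.0468) or Liver-RE ZT4 replicate 2 (0.0411). Between Liver-RE and KO the count was 0 by limma with 0.238% called and 0 members under 0.05. The WT rhythm and the absence of a call in KO are thus not by themselves a difference between genotypes.

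Sult2a1 and Sult2a2 followed each other from library to library. Within WT, r was 0.933 and rho 0.924 over 18 libraries, each with a permutation p of 1e-05, the smallest that 100000 permutations give (adjusted 0.000135 over 27 relations of Sult2a1 with the other 9 genes in 3 genotypes). Within Liver-RE, r was 0.931 and rho 0.963, with the same permutation p. Leaving out the 2 libraries farthest from the Sult2a1 median left r at 0.901 in WT and 0.939 in Liver-RE. In KO, r was 0.619 (permutation p = 0.00903, adjusted 0.0610) but 0.109 without the 2 farthest libraries, so it rests on them. The shared stretches of the pair go into each of these values.

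Of the other relations, 1 passed the adjustment: Sult1a1 with Sult2a1 in Liver-RE, with r = 0.646 and rho = 0.686 over 18 libraries (permutation p = 0.00453 and 0.00217, adjusted 0.0408 and 0.0195), and r = 0.512 without the 2 farthest. In WT the same pair had r = 0.50 (permutation p = 0.0336, adjusted 0.182). Sult2a7 against Sult2a1 had r between -0.21 and 0.41 in the 3 genotypes, with no adjusted permutation p under 0.05. Both members of a pair share the library depth and the harvest times.

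**Figure D5:**
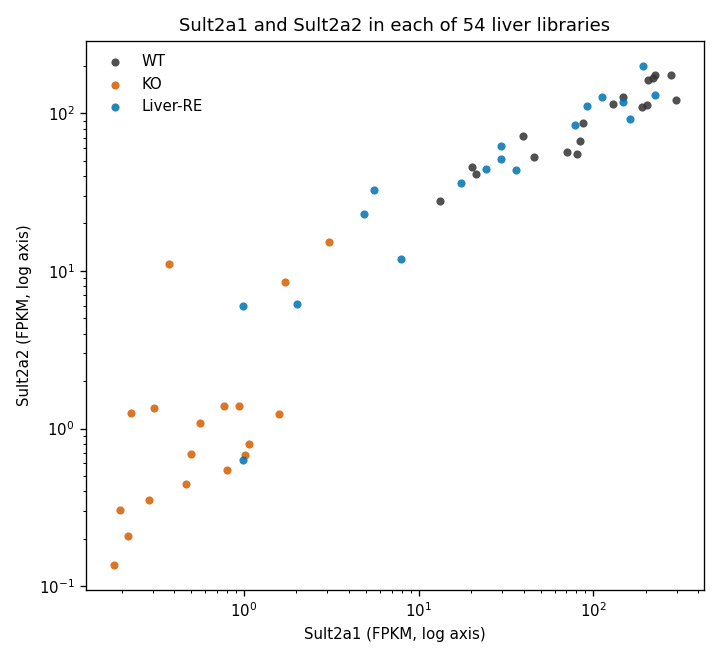
Sult2a1 against Sult2a2 in FPKM on log axes, with 1 point per library. WT and Liver-RE points lie along a shared band, with r of 0.933 and 0.931 on the log2(FPKM + 1) scale, and most KO points lie below 2 FPKM on both axes.

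Outside the family, genes whose pattern was most like that of each member were found by the Pearson r of log2(FPKM + 1) over 54 libraries, a measure that the genotypes largely set. For Sult2a2 they included Cyp2a4 (r = 0.880) and Slc22a26 (0.876), and for Sult2a1 Fam19a2 (0.846) and Cyp17a1 (0.838). Sult3a1 and Sult5a1 were both most like Dct (r = 0.894 and 0.867) and shared Cyp3a44, which fell from 68.6 to 0.530 FPKM on average. Sult1a1 was most like Slc47a1 (0.834), Sult2a7 like Gstm6 (0.815), and Sult1e1 like Grk5 (0.829), Kynu (0.804) and Spink1 (0.791). Sult1d1 was most like Slc16a10 (0.813), Sult1b1 like Pex11g (0.807) and Sult1c2 like Serpina6 (0.753), which encodes corticosteroid-binding globulin.

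Genes that make and handle the sulfate donor were examined next. Of 6 tested genes for PAPS synthesis and handling, 1 was higher and 1 lower in KO than in WT (limma; median log2 difference -0.04). Over all genes tested, 16.5% were called higher and 13.5% lower, and the 1 gene each way lies near those shares. Papss2, which makes PAPS in liver, fell by 0.52 ± 0.130 on the log2 scale (SE; limma, adjusted p = 0.00159), from 88.4 ± 20.2 FPKM to 62.7 ± 20.2 (SD, n = 18). In Liver-RE it was 93.6 ± 20.6 FPKM. Papss1, the other synthase, was 0.23 ± 0.088 higher in KO (SE; limma, adjusted p = 0.0388). Of 10 tested genes of sulfate supply, 3 were higher and 0 lower in KO (16.5% and 13.5% over all genes), among them Cdo1, cysteine dioxygenase (0.29 ± 0.091, SE; limma, adjusted p = 0.0114), and Ethe1 (0.48 ± 0.165, SE; limma, adjusted p = 0.0241). Of 11 sulfatases and their activators, 2 were higher and 3 lower, again beside 16.5% and 13.5% over all genes, with Arsg at 0.57 and Arsa at 0.33 above WT (limma, adjusted p = 6.08e-07 and 0.000325).

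Of 20 receptors and transcription factors known to act on sulfotransferase genes, 4 were higher and 7 lower in KO than in WT (limma), beside 16.5% higher and 13.5% lower over all genes tested. Cux2, a factor of female mouse liver, fell from a mean of 4.30 ± 1.47 FPKM in WT to 0.599 ± 0.508 in KO and was 2.26 ± 1.49 in Liver-RE (SD, n = 18). Esr1, the estrogen receptor, was -1.12 ± 0.131 on the log2 scale and Trim24 -0.61 ± 0.097 (SE; limma, adjusted p = 1.78e-09 and 1.6e-06). In Liver-RE against WT, 2 of the 20 were called, both lower (5.88% over all genes), with Cux2 at -0.79 ± 0.168 (SE; limma, adjusted p = 0.00197).

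Among 12 enzymes that act on steroid substrates, 4 were higher and 3 lower in KO (limma), where 16.5% and 13.5% of all genes were. Cyp17a1 went from 52.8 ± 25.6 FPKM in WT to 2.05 ± 1.39 in KO and 44.9 ± 27.3 in Liver-RE, and Hsd3b5 from 3.54 ± 4.96 to 45.9 ± 35.8 and 5.67 ± 14.3 (SD, n = 18). Of 15 UDP-glucuronosyltransferases, which conjugate many of the same acceptors, 6 were higher and 4 lower in KO against the same shares of all genes, and Ugt1a9 had the smallest adjusted p, at -2.64 ± 0.122 (SE; limma, adjusted p = 2.25e-23). The Ugt1a genes share exons and the Hsd3b, Cyp2a and Cyp3a genes have close copies, so their values are uncertain where reads fit several genes. These lists were chosen with earlier results of these data known, and their counts were not tested as sets.

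Markers of other cells moved between the genotypes as well. All 7 Kupffer cell and macrophage markers were lower in KO than in WT (limma), beside 13.5% of all genes tested. Their summed level was 164 to 243 FPKM in WT and 96.2 to 215 in KO. Against WT, 3 of the 7 were also lower in Liver-RE, beside 5.88% of all genes, and 0 were called between Liver-RE and KO. The 2 tested cholangiocyte markers were higher in KO than in WT, beside 16.5% of all genes. The summed level of 6 cholangiocyte markers was 12.1 to 40.1 FPKM in WT and 14.7 to 76.2 in KO. Of the exocrine pancreas markers, Cela1 was the 1 tested and was 1.18 higher in KO on the log2 scale (limma), with a median summed level of 4 markers of 4.53 FPKM in WT and 14.1 in KO, while Prss2, Cpa1 and Pnlip stayed under 0.5 FPKM in every library. Of the adipocyte markers, Fabp4 was the 1 tested and was higher than in WT by 0.30 in KO and 0.35 in Liver-RE (limma), while Adipoq and Cfd stayed under 0.5 FPKM. Cftr, a defining cholangiocyte marker, stayed under 0.5 FPKM in every library, as did Cd3e of T cells. The summed level of 10 hepatocyte markers was 40100 to 61600 FPKM in WT and 23100 to 43400 in KO, and it follows Alb. The hepatocyte markers went both ways, with 2 of the 10 called higher and 3 lower in KO than in WT (limma). Over all genes tested, 16.5% were higher and 13.5% lower. The median log2 difference of the 10 was -0.05. The part of cell type markers in the sulfotransferase results was not tested.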

How the data were processed

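Livers of female mice were sequenced in 54 libraries (3 genotypes, 6 harvest times, 3 each) as stranded, ribosome-depleted total RNA, per the labels' protocols. CASAVA 1.8.2 and the build mm10 appear in the submitters' processing notes, without a role; which aligner and counter were used is not given in the sources used here. A single table was deposited by the authors, with normalized values and no named unit, taken as FPKM from the values: at low values, 12.3% ± 1.67 (SD, n = 54) shared 1 step after multiplication by transcript length, against 2.56% ± 0.460 without it. No count model was used.

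Values were analysed as log2(FPKM + 1) for 11759 genes with a mean of at least 0.5, in limma 3.58.1 (R 4.3.3) with a mean, 24 h cosine and sine per genotype over all 54 libraries. P-values were adjusted by Benjamini-Hochberg over all genes, with a threshold of 0.05. The scale understates changes of low genes. Members were compared by coding sequence (GENCODE vM21, aligned with Biopython 1.88), in place of the planned protein identity; positions and promoters came from RefSeq.

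All 10 genes were described, with the 3 most alike genes each and up to 4 genes per pathway list by smallest adjusted p. Some genes that these rules name are not reported here. The members and lists were chosen with earlier results of these data known. Alternatives were a replicate block, a pseudocount of 0.1, no filter, 2 rescalings, group means, fewer genotypes, each library left out, and summed Sult2a genes.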

Additional observations from a re-analysis of the deposited data

How the results depend on the processing

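The count of the 10 genes called in level KO vs WT was 9 in every setting tried other than the summed Sult2a genes, which give no such count. In level Liver-RE vs WT it was 4, with 3 when only these genotypes were fitted and 4 to 5 with each library left out; in level Liver-RE vs KO it was 9, with 8 to 9 over the settings and over the libraries left out. In rhythm WT it was 4, with 3 to 5 over the libraries left out, 5 with group means and 6 when only WT was fitted, which added Sult1e1 and Sult2a7. In rhythm Liver-RE it was 0, with 1 (Sult1c2) when only Liver-RE was fitted and 0 to 1 over the libraries left out. The count for rhythm difference KO vs WT was 0, and it was 1 with the replicate block, 1 with quantile normalization, 1 with group means and 0 to 2 over the libraries left out. The count for rhythm difference Liver-RE vs WT was 0 to 1 over the libraries left out, and the counts for rhythm KO and rhythm difference Liver-RE vs KO stayed at 0. The sum of all 8 Sult2a genes is not a measure of Sult2a7. Averaged over libraries, the share of Sult2a8 in it was 45.5% in WT and 94.6% in KO. The differences of the sum were -0.25 in KO vs WT, -0.10 in Liver-RE vs WT and 0.15 in Liver-RE vs KO. Each is opposite in sign to that of Sult2a7, and none was called (adjusted p = 0.218, 0.720 and 0.457 in limma, in the same order). Sult2a7 itself kept its calls and directions in every other setting. Sult2a1 was called in all 3 contrasts and Sult2a2 in KO vs WT and Liver-RE vs KO, where the sum was not.

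The check of whether samples with the same replicate number deviate together was mixed. Their mean correlation was 0.0397, against -0.0201 for other numbers, 34.9% of pairs were over 0.1 and the lowest was -0.402. At the same harvest time, 35 of 54 libraries correlated best with their own number, where equal odds for the 3 numbers give 18, a hint from the data and not from the design. Since not every pair was over 0.1, the numbers were not taken as pairs, and the replicate block changed no count besides the one above. After seeing the data, the 2 libraries whose clock genes lay farthest from their group were left out together. A first version of that distance, to the mean of the other replicates, took WT ZT8 replicates 2 and 3, the latter because replicate 2 pulls the mean; it gave 1 gene for rhythm difference KO vs WT. The distance to the nearest replicate took WT ZT8 replicate 2 and Liver-RE ZT20 replicate 1 and gave 2. Both versions left the other counts as they were. The depth of single libraries is an estimate, so no interval for counting error is given for genes near 0, such as Sult1e1 in WT.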

Other observations

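Sult2a6, a neighbour of Sult2a1 on chromosome 7 outside the 10 genes, split the WT and Liver-RE libraries. Of these 36 libraries, 17 had at most 0.0712 FPKM of Sult2a6, and the other 19 had at least 1.51 FPKM, with no value between. In WT, the 9 high values ran from 4.06 to 10.1 FPKM and included at least 1 library at each harvest time. Libraries on either side had high Sult2a1: WT ZT16 replicate 2 had 10.1 FPKM of Sult2a6 with 296 of Sult2a1, and WT ZT8 replicate 2 had 0.0159 with 277. Sult2a4 went with Sult2a6, at 5.36 FPKM in WT ZT16 replicate 2 and 0.197 in WT ZT8 replicate 2. In KO, the highest Sult2a6 values were 2.22 and 1.14 FPKM, in ZT20 replicate 1 and ZT0 replicate 3, and these libraries also held the 2 highest KO values of Sult2a1, 3.08 and 1.73 FPKM. The labels name no difference between the libraries on the 2 sides, and no comparison was made between them.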
